A study of Mus musculus with 9 samples.

Results

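The anterior Hox genes described here are 10 members of the Hox family, Hoxa3, Hoxa5, Hoxb2, Hoxb3, Hoxb4, Hoxb5, Hoxb6, Hoxb7, Hoxc4 and Hoxc6. They were taken by symbol, through every probe set whose annotation names 1 of them and no other gene, which gave 18 probe sets of 45037 and 10 genes of 18193. RNA came from motor neurons cut by laser from sections of male wild-type C57BL/6J mice at postnatal day 7, untreated, with about 200 neurons per pool from each of 3 animals. L5 is the pool of the fifth lumbar level, DL the dorsolateral nucleus at lumbar level 6, and OMN the oculomotor nucleus of the midbrain, which moves the eye. Each pool was measured on 3 arrays, and the study compared pools that differ in their vulnerability in amyotrophic lateral sclerosis.

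Hox genes encode homeodomain transcription factors that lie in clusters on different chromosomes. Genes at one end of a cluster are switched on early and far forward in the embryo, in hindbrain and neck, and genes toward the other end later and farther back, so that each level of the cord carries its own combination. In the spinal cord these factors set the column and the muscle target of motor neurons, and the midbrain lies in front of the region where Hox genes are used. The members belong to paralog groups 2 to 7, the forward end of the clusters. Cluster A on chromosome 6 holds 2 of them, cluster B on chromosome 11 holds 6 and cluster C on chromosome 15 holds 2.

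Promoter sequence was at hand in RefSeq for 4 of the 10 members, and the 250 bases before the start are shown for all 4. They were shown because they were available and not because of their levels. Hoxa3, Hoxa5 and Hoxc4 are the members that were high in both spinal pools, and Hoxb4 is a member of cluster B, whose genes varied among the DL arrays. Coordinates are on build GRCm38.p6. Hoxa3 is at chr6:52213068-52213317 and Hoxa5 at chr6:52204588-52204837, both on the minus strand, and Hoxb4 at chr11:96318017-96318266 and Hoxc4 at chr15:103034145-103034394 on the plus strand. Each is written 5′ to 3′ and ends at the base before the start. For Hoxa3 the start is that of a RefSeq model that runs over Hoxa4, Hoxa5 and Hoxa6. On the minus strand its window therefore lies upstream of the Hoxa5 window. Whether the probe sets of Hoxa3 read transcripts from this start was not tested. Capitals mark matches to the motifs named in the next paragraph and 1 run of letters shared by Hoxa5 and Hoxc4.
Hoxa3: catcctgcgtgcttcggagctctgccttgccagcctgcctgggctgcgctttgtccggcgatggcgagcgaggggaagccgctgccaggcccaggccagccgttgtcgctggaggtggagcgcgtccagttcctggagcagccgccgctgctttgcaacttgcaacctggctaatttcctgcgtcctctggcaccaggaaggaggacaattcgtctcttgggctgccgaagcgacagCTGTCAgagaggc
Hoxa5: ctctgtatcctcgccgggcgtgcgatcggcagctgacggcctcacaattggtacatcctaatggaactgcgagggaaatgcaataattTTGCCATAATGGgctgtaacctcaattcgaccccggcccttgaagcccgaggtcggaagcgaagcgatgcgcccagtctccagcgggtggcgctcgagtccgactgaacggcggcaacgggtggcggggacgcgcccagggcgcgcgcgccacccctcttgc
Hoxb4: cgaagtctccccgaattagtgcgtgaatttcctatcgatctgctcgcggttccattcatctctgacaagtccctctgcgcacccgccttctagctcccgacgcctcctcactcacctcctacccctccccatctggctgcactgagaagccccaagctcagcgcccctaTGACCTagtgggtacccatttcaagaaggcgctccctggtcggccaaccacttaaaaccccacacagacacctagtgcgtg
Hoxc4: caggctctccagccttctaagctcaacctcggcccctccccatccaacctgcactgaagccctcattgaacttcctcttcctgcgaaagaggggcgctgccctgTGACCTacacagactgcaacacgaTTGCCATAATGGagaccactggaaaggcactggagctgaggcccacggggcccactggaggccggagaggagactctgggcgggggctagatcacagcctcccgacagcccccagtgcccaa

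These windows held 64.8% G or C in Hoxa3, 63.6% in Hoxa5, 58.0% in Hoxb4 and 62.0% in Hoxc4, against a median of 52.4% over all promoters in the table. 4 motifs were searched on both strands, none of them overlapping another in these windows. TGATNNAT, bound by Hox proteins together with Pbx, was in none of the 4 windows and in 7.68% of 32851 promoters of the same length. TGACAG, bound by Meis proteins, occurred once, in Hoxa3, beginning 13 bases before the start, and was in 15.9% of promoters. AGGTCA, the half-site of nuclear receptors such as those for retinoic acid, a signal that switches on anterior Hox genes in the embryo, occurred once in Hoxb4, 81 bases before the start, and once in Hoxc4, 146 bases before it. It was in 14.0% of promoters. TTTATG, bound by Cdx proteins, was in none of the 4 and in 10.8% of promoters. The run TTGCCATAATGG of 12 bases stood 162 bases before the start of Hoxa5 and 122 before that of Hoxc4, and of all 32851 promoters these 2 held it. This run was picked after the sequences had been compared with each other, from runs of at least 12 bases, because few promoters held it. Its rarity was thus part of the choice and is not a result. A run of 12 bases shared by Hoxb4 and Hoxc4 was in 25 promoters and is not marked. Each match describes the letters and not a site in use.

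All values are intensities on a linear scale, and differences are in log2(intensity + 16), a scale that understates the change of dim genes. A gene was called higher or lower where its adjusted p in limma was under 0.05 over all 18193 genes. The noise level was 18.3, the top value among 27 control probe sets for bacterial RNA that was not added. Where a pool lay at or under it, a fold is given as at least the ratio of geometric means after raising that pool to the noise level. The p-values and SE rest on an estimate of spread for each gene that all 9 arrays share after the replicate block. The arrays of the third pool therefore enter each comparison, and the SE of a gene is the same in all 3. The number of arrays, 3 a pool, limits the precision. A lower level in a pool can mean fewer cells that express a gene or less RNA in each, and these cannot be told apart.

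The arrays carried genes of motor neurons in every pool. The acetylcholine transporter Slc18a3 had a mean of 2828 in L5, 1662 in DL and 2478 in OMN, while the probe set for Chat, which makes acetylcholine, had means of 6.10, 15.6 and 22.3 in that order, at or under noise on all L5 arrays. The spinal motor neuron factor Mnx1 was 128 in L5, 94.5 in DL and 1.77 in OMN. Of the other motor neuron markers, Slc5a7 had means of 4074, 3230 and 4107 in that order, and Prph 10257, 8626 and 4844. Isl1 had means of 598, 2717 and 2129, Isl2 85.6, 96.2 and 12.6, and Phox2a 14.4, 2.5 and 19.3. Phox2a was above noise on 1 array of L5, 0 of DL and 1 of OMN. Sections were cut by stain, and glial RNA was present in all pools. The summed level of 11 oligodendrocyte markers was 17936 to 18916 in L5, 23788 to 26305 in DL and 14793 to 16335 in OMN, that of 8 astrocyte markers 22137 to 23450, 18537 to 20825 and 17717 to 18262, and that of 7 inhibitory interneuron markers 1655 to 2306, 5096 to 5961 and 2146 to 3058. 5 Schwann cell and sensory neuron markers summed to 1981 to 2334, 1496 to 1945 and 516 to 625. Of these, Pmp22 had means of 2060 in L5, 875 in DL and 135 in OMN, which was most of the L5 sum. Pou4f1 had means of 62.5, 185 and 365 in that order, and Avil 25.3, 47.9 and 27.3. The sensory sodium channel Scn10a was at or under noise in every pool. Scn11a, another, was at 609 in DL, 19.9 in L5 and 26.4 in OMN. Some single markers lay higher in both spinal pools than in OMN, and others of their lists did not. The astrocyte gene Gfap had means of 325 in L5, 1550 in DL and 18 in OMN, called in all 3 comparisons (adjusted p = 0.00352 for L5 against OMN, 0.000421 for DL against OMN and 0.0185 for L5 against DL), in the same order of pools as Hoxa3. The glycine transporter Slc6a5, a gene of inhibitory neurons, had means of 551, 707 and 22.6. Gapdh probe sets at the 3' end read 3.27, 2.44 and 3.75 times those at the 5' end in DL, and 2.33 to 2.67 times in L5 and OMN, a measure of how intact the RNA is. The same ratio for actin was 0.934, 0.807 and 0.995 in DL, and 0.9 to 0.934 in L5 and OMN. The part of these values in the results on the Hox genes was not tested.

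Most anterior Hox genes were above noise on all L5 arrays, and fewer were on all DL arrays. In the oculomotor pool nearly all were at or under noise. By the brightest probe set of each gene, 8 of the 10 were above the noise level on all 3 L5 arrays, 3 on all 3 DL arrays and 0 on all 3 OMN arrays. Over all genes those shares were 63.2%, 59.9% and 63.7%. In OMN 9 of the 10 had no array above noise, and the exception was Hoxc6 on array 3. In L5 and in DL 1 of the 10, Hoxb7, had none. Of all genes 23.4% had no array above noise in OMN, 20.5% in L5 and 24.2% in DL. Counted by array, 8 to 9 members exceeded noise in L5, 6 to 7 in DL and 0 to 1 in OMN.

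**Figure D1:**
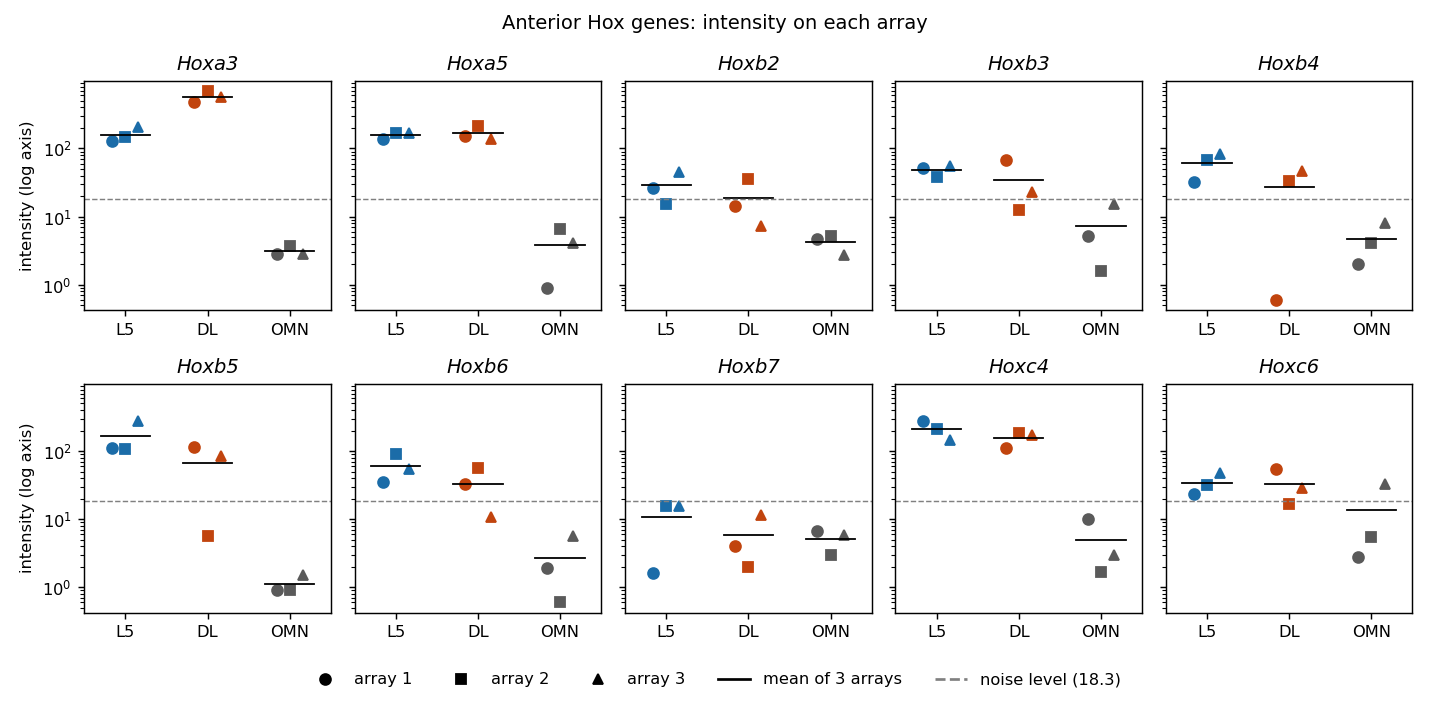
Intensity of each anterior Hox gene on each array (vertical log axis, no units), with pools along the horizontal axis, a symbol for each array number, a bar at the mean of the 3 arrays and a dashed line at the noise level of 18.3. Hoxa3, Hoxa5 and Hoxc4 lie above noise on all L5 and DL arrays and below it on all OMN arrays, while DL arrays of Hoxb4 and Hoxb5 spread from below noise to well above it.

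Between L5 and OMN, 6 of the 10 members were called higher in L5 and 0 lower, where 0.951% of all genes were called higher in L5, 1.20% lower and 2.15% in either direction. The 6 were Hoxa3, Hoxa5, Hoxb4, Hoxb5, Hoxb6 and Hoxc4. All 10 differences were positive, with a median of 1.91 on the log2 scale against 0.0145 over all genes. In 8 of the 10 every L5 array exceeded every OMN array, a pattern that 14.6% of all genes showed. The genes were chosen with earlier results of these data known, so the count is no independent evidence of a direction.

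Between DL and OMN, 3 of the 10 were called higher in DL and 0 lower, where 1.36% of all genes were called higher in DL, 1.64% lower and 3.00% in either direction. These were Hoxa3, Hoxa5 and Hoxc4. All 10 differences were again positive, with a median of 1.14 against -0.036 over all genes, though that of Hoxb7 was 0.031 and turned negative with a pseudocount of 1. In 6 of the 10 every DL array exceeded every OMN array, as in 9.50% of all genes. Both comparisons use the same OMN arrays, so their results are not independent of each other.

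Between L5 and DL, 1 of the 10 was called, Hoxa3, which was lower in L5. Over all genes 1.25% were called higher in L5, 1.27% higher in DL and 2.52% in either direction. The median difference of the members was 0.38, against 0.065 over all genes. At an unadjusted p under 0.05 limma gave 2 members higher in L5 and 1 higher in DL, and 1988 and 1452 of all 18193 genes. Taken by probe set and adjusted over all 45037, 5 of the 18 were called in L5 against OMN, 5 in DL against OMN and 1 in L5 against DL, where 1.03%, 1.92% and 1.37% of all probe sets were.

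**Figure D2:**
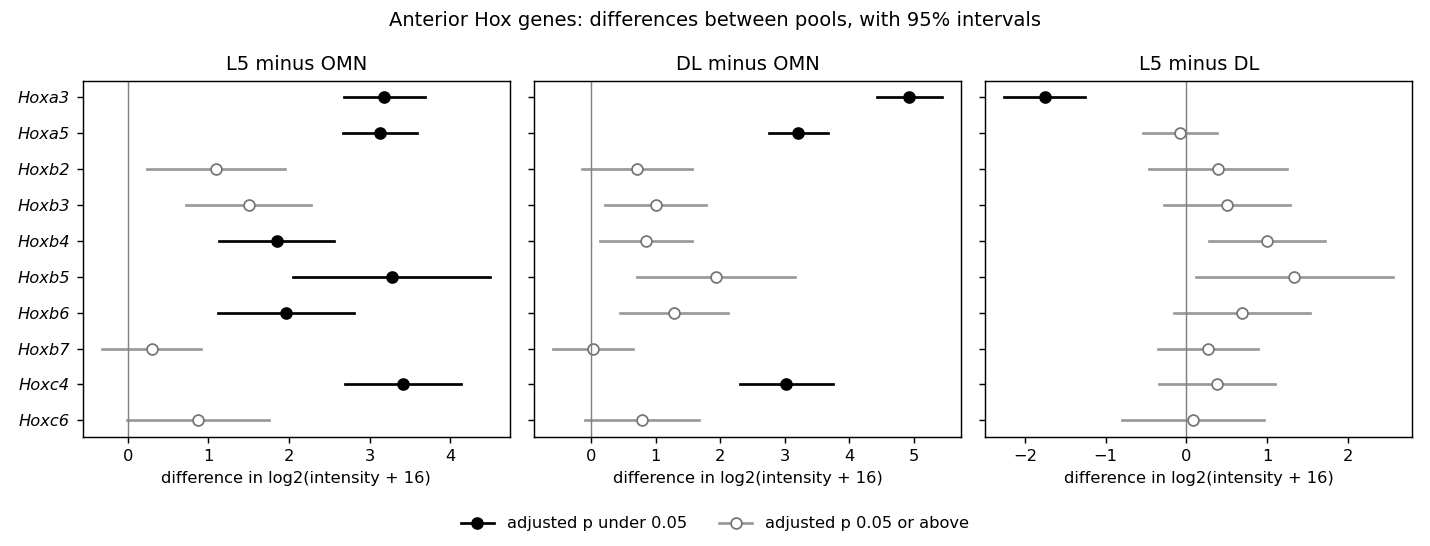
Difference of each anterior Hox gene between pools in log2(intensity + 16), with its 95% interval, for L5 minus OMN, DL minus OMN and L5 minus DL; filled points have an adjusted p under 0.05. The filled points are 6 genes in the first panel, 3 in the second and Hoxa3 alone in the third, where it lies to the left of 0.

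Both members of cluster A were called higher than OMN in both spinal pools. Hoxa3, which in the embryo shapes the pharyngeal organs and is used in the caudal hindbrain, had intensities of 128.2, 148.5 and 203.7 in L5, 474.0, 687.2 and 561.2 in DL, and 2.8, 3.7 and 2.8 in OMN. The 3 pools did not overlap, and DL was the highest on every array. Means were 160 ± 39.1 (SD, n = 3) in L5, 574 ± 107 in DL and 3.10 ± 0.520 in OMN. L5 was at least 8.59-fold above OMN (3.18 ± 0.21 SE on the log2 scale, limma adjusted p = 0.000865) and DL at least 31.0-fold (4.93 ± 0.21, adjusted p = 0.000109).

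Hoxa3 was also the member that separated the spinal pools. It was lower in L5 than in DL by a log2 difference of -1.75 ± 0.21 SE, with a 95% interval of -2.25 to -1.25 and an adjusted p of 0.0117. In 1 of the 10 members, this one, every DL array exceeded every L5 array, as in 9.64% of all genes, and in 0 of the 10 every L5 array exceeded every DL array, as in 13.7%. Leaving out L5 array 1 gave -1.69 (adjusted p = 0.0787) and leaving out L5 array 2 gave -1.64 (adjusted p = 0.0780), so the call ended without either of these arrays, and with a mean over its 4 probe sets the difference was -0.52 (adjusted p = 0.193). It also missed the threshold with a pseudocount of 1 (adjusted p = 0.0582), in a fit of only L5 and DL (0.0844) and without DL arrays 1 and 3 (0.0904).

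Those 4 probe sets of Hoxa3 did not give like values. 1427433_s_at read 39.1, 28.8 and 51.5 in L5, 39.9, 73.5 and 81.9 in DL and 11.1, 6.8 and 14.7 in OMN, so that both spinal pools lay above OMN but overlapped each other. Among all probe sets it was called higher in DL than in OMN (1.56 ± 0.24 SE, adjusted p = 0.0260) and was not called in L5 against OMN (1.04 ± 0.24, adjusted p = 0.119) or L5 against DL (-0.52 ± 0.24, adjusted p = 0.343). 1431392_at exceeded noise on L5 array 3 alone, at 22.7, and 1429398_at on no array. The RefSeq model of Hoxa3 runs over Hoxa4, Hoxa5 and Hoxa6, and whether each probe set reads one transcript was not tested.

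Hoxa5, needed in the embryo for phrenic motor neurons and the respiratory tract, read 135.4, 166.2 and 169.5 in L5, 154.0, 215.4 and 138.3 in DL, and 0.9, 6.5 and 4.1 in OMN. The spinal pools overlapped each other and lay far above OMN on every array. Means were 157 ± 18.8 (SD, n = 3), 169 ± 40.7 and 3.83 ± 2.81. The difference from OMN was at least 8.54-fold in L5 (3.13 ± 0.20 SE, adjusted p = 0.000688) and at least 9.08-fold in DL (3.21 ± 0.20, adjusted p = 0.000555). L5 minus DL was -0.082 ± 0.20 with a 95% interval of -0.54 to 0.38 (adjusted p = 0.877). Its other probe set, 1443803_x_at, read 151.2, 64.5 and 111.6 in L5, 156.8, 182.3 and 91.3 in DL, and 2.7, 22.9 and 7.1 in OMN, with OMN array 2 above noise. Among all probe sets it was called in DL against OMN (2.59 ± 0.40, adjusted p = 0.0259) and not in L5 against OMN (2.23 ± 0.40, adjusted p = 0.0579).

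**Figure D3:**
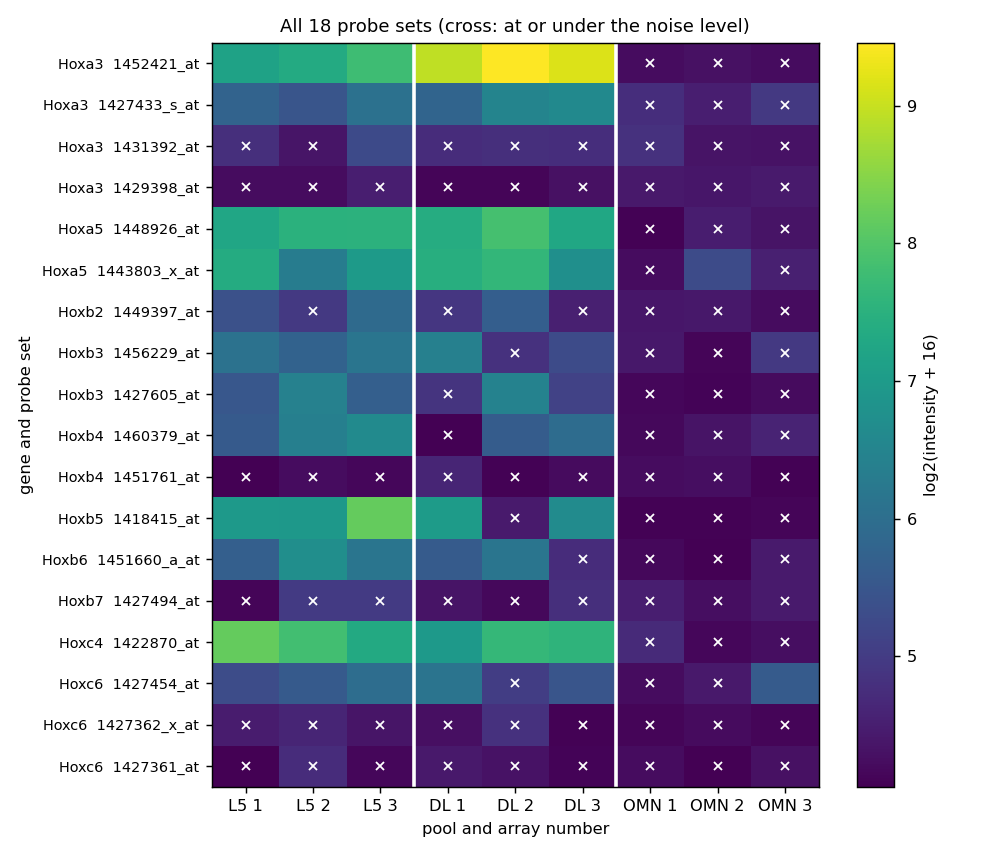
All 18 probe sets of the 10 genes (rows) on the 9 arrays (columns, by pool and array number), coloured by log2(intensity + 16); a white cross marks a value at or under the noise level. Crosses cover nearly all of the OMN columns, where 16 of the 18 probe sets had no array above noise, and the whole row of 1 probe set each of Hoxa3, Hoxb4 and Hoxb7 and of 2 of Hoxc6.

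In cluster C, Hoxc4, a factor of the neck and forelimb levels of the cord, read 274.6, 208.7 and 144.9 in L5, 110.0, 184.0 and 173.1 in DL, and 10.1, 1.7 and 3.0 in OMN. The spinal pools overlapped and stood above OMN on all arrays. Means were 209 ± 64.9 (SD, n = 3), 156 ± 40.0 and 4.93 ± 4.52. L5 was at least 11.1-fold above OMN (3.41 ± 0.31 SE, adjusted p = 0.00317) and DL at least 8.30-fold (3.03 ± 0.31, adjusted p = 0.00367). L5 minus DL was 0.38 ± 0.31, with an interval of -0.34 to 1.10 (adjusted p = 0.564).

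Hoxc6, which marks limb motor neurons of the forelimb level, behaved otherwise. It read 23.8, 32.1 and 47.4 in L5, 53.7, 16.9 and 28.3 in DL, and 2.8, 5.4 and 32.9 in OMN, so that OMN array 3 lay within the range of both spinal pools. No comparison was called: the log2 differences were 0.88 ± 0.38 SE for L5 minus OMN (adjusted p = 0.314), 0.79 ± 0.38 for DL minus OMN (adjusted p = 0.371) and 0.086 ± 0.38 for L5 minus DL (interval -0.79 to 0.96, adjusted p = 0.939), the last of which turned negative under quantile normalization. The probe sets 1427362_x_at and 1427361_at of Hoxc6 stayed at or under noise on all 9 arrays. The next gene of the cluster that was measured toward the posterior end, Hoxc8, had means of 331 in L5, 149 in DL and 3.70 in OMN. Hoxc8 was called higher than OMN in L5 (4.11 ± 0.26 SE, adjusted p = 0.000696) and in DL (3.02 ± 0.26, adjusted p = 0.00222).

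The 6 members of cluster B were called less often in DL than in L5 when set against the same OMN arrays, a difference in counts that was not itself tested. In L5 3 of the 6 were called higher than OMN, and in DL 0 of the 6. Over all genes 0.951% were called higher in L5 and 1.36% in DL. At an unadjusted p under 0.05 in limma 5 of the 6 were higher in L5 and 4 in DL. Of all 18193 genes 1458 and 1172 were. The 3 calls in L5 each ended when single arrays were left out, and in DL Hoxb3 or Hoxb5 passed under the settings given with their values. All 6 had a higher mean of log2 values in L5 than in DL, by 0.27 to 1.33, but no difference between the spinal pools passed the test. For Hoxb2 the sign turned when DL arrays 1 and 3 were left out (-0.45) or the Gapdh ratio entered the model (-0.24).

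Hoxb5, a factor of the caudal hindbrain, the cord and the enteric nervous system, read 110.8, 107.1 and 274.7 in L5, 112.9, 5.7 and 85.2 in DL, and 0.9, 0.9 and 1.5 in OMN. All L5 and DL arrays stood above all OMN arrays, but DL array 2 was itself under noise. Means were 164 ± 95.7 (SD, n = 3), 67.9 ± 55.6 and 1.10 ± 0.346. L5 was at least 8.10-fold above OMN (3.28 ± 0.52 SE, adjusted p = 0.0278), while DL minus OMN was 1.94 ± 0.52 (adjusted p = 0.114), which became 2.63 (adjusted p = 0.0335) without DL array 2 and passed with trend and robust variances (adjusted p = 0.0451). L5 minus DL was 1.33 ± 0.52, with an interval of 0.11 to 2.55 before adjustment (adjusted p = 0.225).

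Hoxb4, known for its boundary in the hindbrain and its role in blood stem cells, read 32.2, 67.7 and 84.2 in L5, 0.6, 33.1 and 46.5 in DL, and 2.0, 4.1 and 8.0 in OMN. Every L5 array lay above every OMN array, and DL array 1 lay below all of OMN. L5 was at least 3.11-fold above OMN (1.85 ± 0.31 SE, adjusted p = 0.0307), DL minus OMN was 0.85 ± 0.31 (adjusted p = 0.225), and L5 minus DL was 1.00 ± 0.31 with an interval of 0.28 to 1.71 before adjustment (adjusted p = 0.144). 1451761_at, the other probe set of Hoxb4, was at or under noise on all arrays.

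Hoxb6, active in trunk mesoderm and cord, read 35.3, 89.5 and 55.3 in L5, 32.4, 55.7 and 10.9 in DL, and 1.9, 0.6 and 5.7 in OMN. Both spinal pools exceeded OMN on every array and overlapped each other, with DL array 3 under noise. L5 was at least 3.05-fold above OMN (1.97 ± 0.36 SE, adjusted p = 0.0423), DL minus OMN was 1.29 ± 0.36 (adjusted p = 0.128), and L5 minus DL was 0.68 ± 0.36 with an interval of -0.16 to 1.52 (adjusted p = 0.361). With p adjusted over all 45037 probe sets instead of genes, the value for L5 against OMN was 0.0614.

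The calls of Hoxb4, Hoxb5 and Hoxb6 in L5 against OMN did not hold when single arrays were left out. That of Hoxb5 ended when any one of the L5 or OMN arrays was left out (adjusted p 0.0611 to 0.149), and that of Hoxb4 ended without any one L5 array or without OMN array 2 or 3 (0.140 to 0.154). That of Hoxb6 ended without any one L5 or OMN array and without DL array 1 or 2 (0.0512 to 0.198). All 3 calls also ended with a pseudocount of 1 (0.0587 to 0.162), that of Hoxb4 without the replicate block (0.0760) and that of Hoxb6 with a pseudocount of 64 (0.0627). The calls of all genes in this comparison also dropped, from 392 to 82 to 107, when an L5 or OMN array was left out. Hoxa3, Hoxa5 and Hoxc4 stayed called against OMN in both spinal pools under all 21 alternatives run.

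Hoxb3, a neighbour of Hoxb4 whose RefSeq model overlaps it, was not called. By 1456229_at it read 52.5, 38.1 and 54.8 in L5, 68.4, 12.3 and 22.9 in DL, and 5.2, 1.6 and 15.1 in OMN, and L5 lay above OMN on every array (1.50 ± 0.33 SE, 95% interval 0.72 to 2.27, adjusted p = 0.0794), a value that passed the test in 6 of 21 alternatives, among them the fit without DL array 1 (adjusted p = 0.0251). By 1427605_at it read 29.8, 70.5 and 35.5 in L5, 13, 71.4 and 18.7 in DL, and 1.8, 1.3 and 2.4 in OMN. DL array 2 was the lowest DL array by the first probe set and the highest by the second. DL minus OMN was 1.00 ± 0.33 (adjusted p = 0.190) and L5 minus DL 0.50 ± 0.33 (interval -0.28 to 1.27, adjusted p = 0.474) by the first. With the mean of both probe sets Hoxb3 was called higher than OMN in L5 (1.61, adjusted p = 0.0105) and in DL (1.16, adjusted p = 0.0304).

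Hoxb2, which sets the identity of hindbrain segments and facial motor neurons, read 26.1, 15.1 and 44.8 in L5, 14.1, 35.1 and 7.2 in DL, and 4.7, 5.1 and 2.7 in OMN. L5 array 2 and DL arrays 1 and 3 were under noise, though all spinal arrays were above OMN. Its differences were 1.09 ± 0.36 SE for L5 minus OMN (adjusted p = 0.205), 0.71 ± 0.36 for DL minus OMN (adjusted p = 0.411) and 0.39 ± 0.36 for L5 minus DL (interval -0.47 to 1.24, adjusted p = 0.628). Hoxb7, the most posterior member of cluster B here, read 1.6, 15.5 and 15.4 in L5, 4.1, 2.0 and 11.6 in DL, and 6.6, 3.0 and 5.8 in OMN, at or under noise throughout, so that its differences have no direction.

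The DL arrays of the Hoxb members disagreed with one another. The SD of log2 values was larger in DL than in L5 for 5 of the 6, with a range of 0.32 to 1.39 in DL and 0.212 to 0.704 in L5. Over the 7120 genes with a mean above 200 the median SD came to 0.204 in L5, 0.171 in OMN and 0.294 in DL. DL was thus the most variable pool there too. Those genes are brighter than every Hoxb member, and the share of all genes with a larger SD in DL was not counted. No one DL array was low throughout: the lowest was array 1 for Hoxb4, array 2 for Hoxb5 and Hoxb7 and array 3 for Hoxb2 and Hoxb6. Of the 4 members outside cluster B, the SD in DL was larger than in L5 for Hoxa5 (0.305 and 0.162) and Hoxc6 (0.545 and 0.338) and smaller for Hoxa3 (0.261 and 0.311) and Hoxc4 (0.364 and 0.428).

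**Figure D4:**
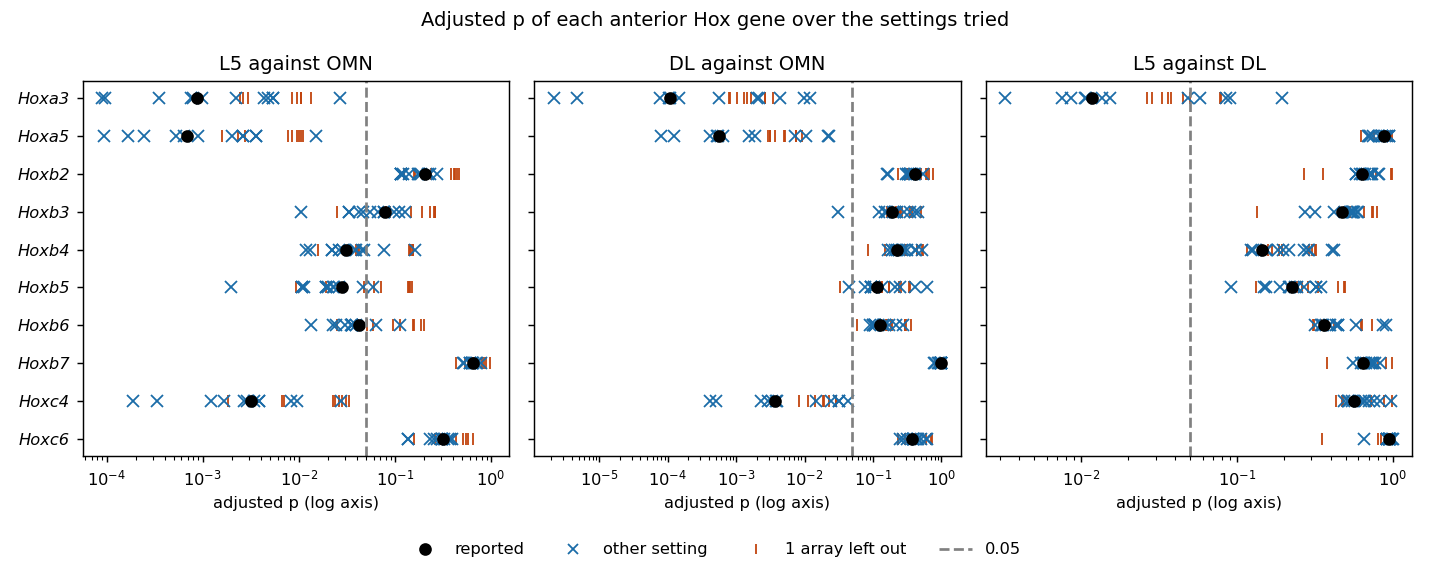
Adjusted p of each anterior Hox gene (horizontal log axis) in the 3 comparisons, as reported (filled circle), under other settings (cross) and with 1 array left out (bar), with a dashed line at 0.05. Hoxa3, Hoxa5 and Hoxc4 stay left of the line in both comparisons with OMN, whereas Hoxb4, Hoxb5 and Hoxb6 fall on both sides of it in L5 against OMN.

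The order of the pools was L5, DL, OMN by mean intensity for Hoxb2, Hoxb3, Hoxb4, Hoxb5, Hoxb6, Hoxc4 and Hoxc6, and DL, L5, OMN for Hoxa3 and Hoxa5. L5 and DL were neighbours in each of these orders, and their difference passed the test in Hoxa3 alone. That call did not hold without L5 array 1 or 2, or with the mean over the Hoxa3 probe sets. DL and OMN, neighbours in the first order, differed in Hoxc4, and L5 and OMN, neighbours in the second, differed in both genes. For Hoxb2, Hoxb3, Hoxb4, Hoxb5, Hoxb6 and Hoxc6 that step did not pass the test.

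The median differences of the members from OMN lay between those of the other Hox lists. Of 10 other Hox genes of groups 1 to 7, 7 were measured, and 0 of them were called in any comparison. In L5 against OMN, DL against OMN and L5 against DL, 4, 2 and 1 had an unadjusted p under 0.05 in limma. Of all 18193 genes 2904, 2920 and 3440 did, and 2.15%, 3.00% and 2.52% were called. The median differences of the 7 from OMN were 0.78 in L5 and 0.39 in DL, against 1.91 and 1.14 for the members. Of 19 genes of groups 8 to 13, which mark thoracic to sacral levels, 16 were measured. Of these, 10 were called higher than OMN in L5 and 10 in DL, with median differences of 4.41 and 3.67. Of all genes 0.951% and 1.36% were called higher. Hoxd11 of groups 8 to 13 was, like Hoxa3, lower in L5 than in DL, at 705 ± 202 (SD, n = 3) and 2014 ± 265. The members were not drawn at random from the family, and the differences between these lists were not tested.

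**Figure D5:**
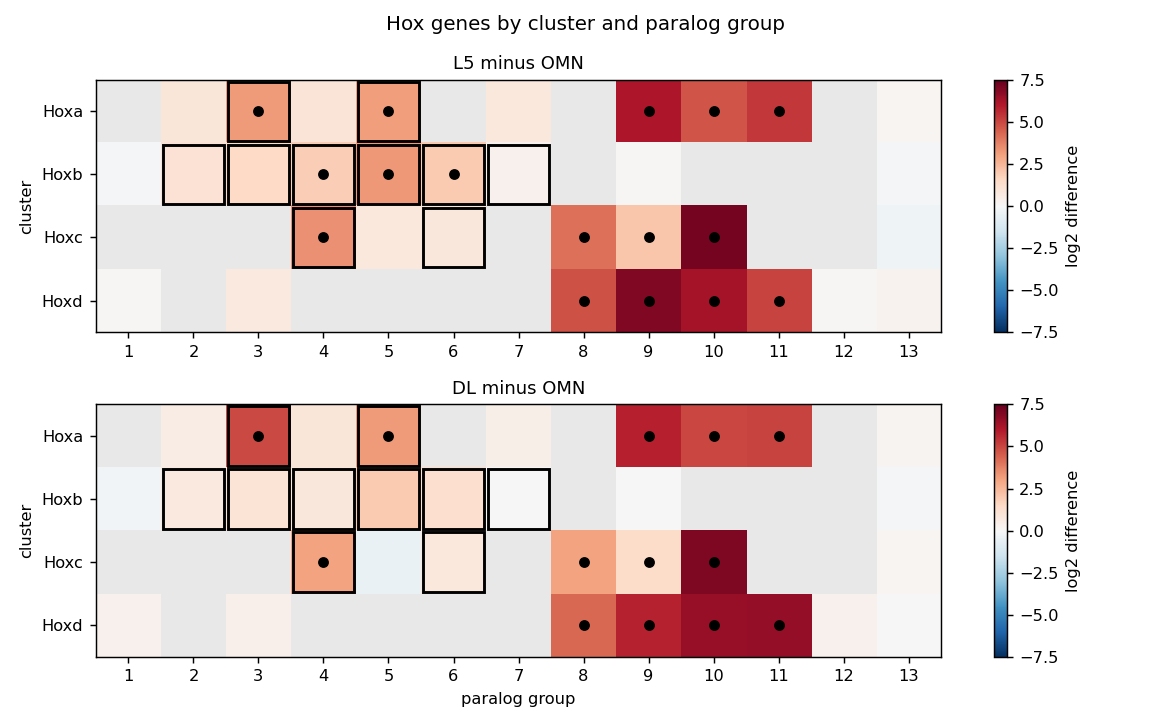
Log2 difference of each measured Hox gene from OMN in L5 (upper panel) and DL (lower panel), by cluster and paralog group; red is higher in the spinal pool, grey is not measured, a dot marks an adjusted p under 0.05 and a frame marks the 10 anterior members. Framed genes with a dot number 6 in the upper panel and 3 in the lower, where no framed Hoxb gene has a dot.

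Hox proteins bind DNA with partners of the Pbx, Meis and Pknox families, and 9 of 10 genes on a list of these and of the forkhead factor Foxp1 were measured. In L5 against OMN 1 was called higher and 1 lower, in DL against OMN 2 higher and 1 lower, and in L5 against DL 0. Over all genes 2.15%, 3.00% and 2.52% were called in either direction in that order. In L5 against DL 5 of the 9 had an unadjusted p under 0.05 in limma, as did 3440 of all 18193 genes. Pbx3 was lower than OMN in both spinal pools, at 320 ± 112 (SD, n = 3) in L5, 374 ± 75.8 in DL and 998 ± 90.7 in OMN (limma adjusted p = 0.0126 and 0.0179). Meis2 was higher in L5, at 390 ± 86.8 against 80.1 ± 48.6 in OMN (2.20 ± 0.40 SE, adjusted p = 0.0432). In DL the genes called higher were Foxp1, which acts with Hox factors in limb motor neurons, at 1425 ± 617 against 125 ± 110 in OMN (3.54 ± 0.52 SE, adjusted p = 0.0156), and Pknox2, at 589 ± 90.3 against 215 ± 77.0 (1.44 ± 0.20 SE, adjusted p = 0.0126). Foxp1 was at 555 ± 132 in L5, above OMN on every array, but was not called there (2.26 ± 0.52 SE, adjusted p = 0.0901).

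Genes that keep or remove the chromatin state of Hox clusters were also listed, and 18 of 19 were measured. 0 of them were called in any comparison, and 2, 2 and 3 had an unadjusted p under 0.05 in limma in L5 against OMN, DL against OMN and L5 against DL. Of all 18193 genes 2904, 2920 and 3440 did, and 2.15%, 3.00% and 2.52% were called. Of the regulators that switch on Hox genes in the embryo, 9 of 10 were measured and 0 were called, with 0, 0 and 2 at an unadjusted p under 0.05. Cdx1, Cdx2, Cdx4 and Egr2 of that list lay at or under noise in every pool.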

How the data were processed

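The authors deposited 1 intensity per probe set for each of 9 Affymetrix Mouse Genome 430 2.0 arrays, on a linear scale. Per the labels' protocols, at least 1.5 ng of RNA per sample was amplified before labelling. The values show a mean of 250.0 per array once 2% at each end is removed. The software and any background correction are not given in the sources used here, and such scaling keeps no information on RNA per cell.

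Of 45101 probe sets 64 controls were left out. A gene was represented by the probe set with the highest mean log2 value, and all probe sets were also fitted. limma 3.58.1 in R 4.3.3 fitted log2(intensity + 16) on all 9 arrays, with pool as factor and replicate number as a block, since the protocol says each animal gave all 3 pools. No label says that equal numbers mean 1 animal, and residuals of same-numbered arrays correlated at -0.07 to 0.06. Benjamini-Hochberg adjustment ran over 18193 genes or 45037 probe sets. The script was tested on simulated arrays.

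The genes named are all 10 members and, of each other list, at most 4 called genes with the smallest p per comparison and posterior Hox genes next to a member. Markers of cell types and genes at noise were named beside these, after their values were seen. Members and lists were chosen with earlier results of these data known. The alternatives changed the pseudocount, noise filter, scaling, block, variance prior, gene summary and arrays.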

Additional observations from a re-analysis of the deposited data

Results flagged for a closer look

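Of 8 probe sets of Hox loci outside those described, 4 had all 3 L5 arrays above the noise level and no OMN array above it. These 4 were picked for L5 arrays above noise that did not overlap the OMN arrays. Tests of L5 against OMN on the same values are therefore no independent evidence. The share of all probe sets with this pattern was not counted. Hoxb5os, the antisense transcript beside Hoxb5 and Hoxb6, had a mean of 344 in L5, from 334.2, 287.9 and 408.6, with 113.4, 472.8 and 24.9 in DL and 2.0, 1.5 and 1.7 in OMN. A probe set shared by Hoxb8 and Hoxb7 had a mean of 137 in L5, from 136.7, 108.2 and 167.4, with 118.4, 10.0 and 457.1 in DL and 0.6, 4.3 and 5.6 in OMN; the probe set of Hoxb7 alone was at or under noise. Hoxd3os1 had a mean of 66.2 in L5, from 49.2, 49.3 and 100.2, with 13.1, 24.1 and 98.6 in DL and 1.2, 0.9 and 1.6 in OMN. Hoxa11os had a mean of 51.0 in L5, from 37.1, 56.6 and 59.2, with 52.5, 44.3 and 43.8 in DL and 5.0, 10.7 and 1.5 in OMN. Over all probe sets limma called Hoxb5os (4.33, adjusted p = 0.0419), Hoxd3os1 (2.20, adjusted p = 0.0419) and Hoxa11os (1.63, adjusted p = 0.0314) higher in L5 than in OMN, and did not call the shared probe set (2.97, adjusted p = 0.129). In DL against OMN it called Hoxa11os (1.55, adjusted p = 0.0249) and not Hoxb5os (2.95, adjusted p = 0.0951), Hoxd3os1 (1.57, adjusted p = 0.0845) or the shared probe set (2.61, adjusted p = 0.137). Of all 45037 probe sets 1.03% were called in L5 against OMN and 1.92% in DL against OMN. The second probe set of Hoxa11os, with means of 9.20 in L5, 11.8 in DL and 10.3 in OMN, and that of Hoxd3os1, with 12.8, 2.87 and 7.87, were not called in either comparison, and neither were the 2 that Hoxd4 and Hoxd3 share.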

How the results depend on the processing

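Over 21 alternatives (20 for Hoxb7, which the noise filter removes) no L5 minus OMN value changed sign; that of Hoxb7 lies at noise. In DL 7 of 209 values changed sign, all of Hoxb7, and in L5 against DL 10 of 209 did, of Hoxa5, Hoxb2, Hoxc4 and Hoxc6. A pseudocount of 1 left 3 anterior genes called in L5 against OMN and 0 in L5 against DL, 2, 3 and 0 of their probe sets in L5 against OMN, DL against OMN and L5 against DL, and 101, 196 and 62 of all genes, and a pseudocount of 64 gave 609 genes in L5 against OMN and 836 in L5 against DL. Without the replicate block 5, 3 and 1 anterior genes, 6, 5 and 1 of their probe sets and 574, 712 and 805 of all genes were called, with Hoxb4 at an adjusted p of 0.0760, and same-numbered arrays gave no sign of pairing. Trend and robust variances gave 946, 872 and 1147 genes and 8 probe sets in L5 against OMN, array weights 677 genes and 8 probe sets there, and the noise filter 8 probe sets. With a mean over probe sets Hoxa3 was not called in L5 against DL, leaving 0. Fits of only the 2 pools compared called 119 genes and 2 anterior probe sets in DL against OMN, and 47 genes, 0 anterior genes and 0 probe sets in L5 against DL. Without DL arrays 1 and 3, added after the data were seen, the lone DL array is assumed to vary like the other pools; 126 genes and 2 probe sets were called in DL against OMN and 0 genes in L5 against DL, with 0 anterior genes and 0 probe sets. The Gapdh ratio as covariate, also added then, gave 274 genes and 3 probe sets, and 90 genes and 0 probe sets. Hoxb7 in DL minus OMN was -0.034 with a pseudocount of 1, -0.29 without DL arrays 1 and 3 and -0.096 with the Gapdh covariate; Hoxb2 in L5 minus DL was -0.45 and -0.24 with the last pair of settings, and Hoxc6 -0.060 after quantile normalization. The cause of these changes was not tested.

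With 1 array left out, all genes called ranged from 82 to 374 in L5 against OMN, 192 to 365 in DL against OMN and 61 to 254 in L5 against DL, anterior genes from 3 to 6, 3 to 4 and 0 to 1, and their probe sets from 2 to 6, 3 to 4 and 0 to 1. In those fits L5 minus DL ranged from -0.24 to 0.021 for Hoxa5, -0.017 to 0.80 for Hoxb2, -0.015 to 0.62 for Hoxc4 and -0.26 to 0.58 for Hoxc6, and DL minus OMN from -0.10 to 0.25 for Hoxb7. Centring arrays on their medians moved the median of all genes in DL minus OMN from -0.036 to 0.11 and the share of calls that were higher from 45.3% to 60.6%, and in L5 against DL from 49.7% to 39.4%; 6, 3 and 1 members were called as before. Hoxc6 and all 6 Hoxb members each had at least 1 DL array under 18.3, and the part of this in their results was not tested.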
